A study of Mus musculus with 9 samples.

Results

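The messages of the 7 mouse genes Sycp1, Sycp2, Sycp3, Syce1, Syce2, Syce3 and Tex12, which encode structural proteins of the synaptonemal complex, were followed from the end of spermatogonial differentiation into preleptotene, the phase in which spermatocytes start meiosis. They were chosen by name, as known components of the complex, and all 7 were found among the 24505 genes of the deposited count table. mRNA had been sequenced from 9 libraries of germ cells sorted from testes of Uchl1-eGfp mice, a C57BL/6 line outcrossed to CD-1 whose EGFP transgene is under the Uchl1 promoter and is bright in spermatogonia but dim in preleptotene spermatocytes. All mice received WIN 18,446, an inhibitor of retinoic acid (RA) synthesis, at 100 µg per g body weight daily from P1 (until P10 in the study's methods, until P11 in the sample records), and all were injected with RA at P11, in a volume of 10 µl with 10 µg per µl. The 3 In/B libraries hold EGFP bright intermediate and type B spermatogonia at P17. The 3 RA-sufficient preleptotene (PL) libraries hold EGFP dim cells at P19 from mice treated in the same way, and the 3 RA-deficient PL libraries hold EGFP dim cells at P19 from mice that continued to receive WIN 18,446 daily after the RA injection until they were killed. Testes of several pups were pooled for a sort, so a library is a pool of cells and not an animal.

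The synaptonemal complex is the protein ladder that holds homologous chromosomes together along their length in meiotic prophase. SYCP2 and SYCP3 form the lateral elements, which run along the chromosome axes and form before homologs synapse. SYCP1 makes the transverse filaments, the rungs that bridge the lateral elements, and SYCE1, SYCE2, SYCE3 and TEX12 build the central element where the rungs meet. The complex itself is assembled later than preleptotene, in zygotene and pachytene, so the values below describe messages that are present before the structure. RA is known as the signal that induces Stra8 and starts spermatogonial differentiation, and the design asks whether messages of the meiotic program reach preleptotene levels when RA synthesis is blocked.

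The genome positions below are from GENCODE release M1 on NCBIM37, the build called mm9. The lateral element gene Sycp2 spans chr2:178079998-178142390 on the minus strand with 45 separate exon stretches, and Sycp3 spans chr10:87922314-87935981 on the plus strand with 8. Sycp1 spans chr3:102622422-102740023 on the minus strand with 34 exon stretches. Of the central element genes, Syce1 lies at chr7:147963128-147973753 (minus strand), Syce2 at chr8:87396010-87412120 (plus strand), Syce3 at chr15:89220605-89240934 (minus strand) and Tex12 at chr9:50365253-50369373 (minus strand). A gene on the opposite strand, Chpt1, shares 660 of the 1264 exon bases of Sycp3, and the sources used here do not say whether strand was used in counting. The counts of Sycp3 are uncertain to that extent. Chpt1, an enzyme of phosphatidylcholine synthesis, stood at 45.4 ± 2.00 CPM (counts per 1000000 counts of the library) in In/B, 34.9 ± 8.18 in RA-sufficient PL and 10.3 ± 6.23 in RA-deficient PL (SD, n = 3), far under Sycp3 in the PL groups. The other genes share no exon bases with a neighbour. The pseudogene Sycp1-ps1 held 22 to 223 counts per library against 4808 to 27468 for Sycp1.

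The promoter sequences are shown because the 4 genes Sycp1, Sycp3, Syce2 and Tex12 had the same pair of short motifs near their start, and Sycp2 is shown beside them as a gene with neither. The stretches below run 5′ to 3′ on the gene's own strand from 150 bases before the transcription start to 9 bases after it, with the start counted as 0. They come from the RefSeq promoter table of GRCm38.p6, and each of the 300-base windows of that table occurred exactly 1 time in NCBIM37, which gives the coordinates. Capitals mark the E-box CACGTG and the core of E2F binding sites, TCCCGC or its reverse complement GCGGGA. The stretches lie at chr3:102740014-102740173 for Sycp1, chr10:87922182-87922341 for Sycp3, chr8:87396007-87396166 for the downstream of the 2 starts of Syce2, chr9:50369364-50369523 for Tex12 and chr2:178142354-178142513 for Sycp2.
Sycp1: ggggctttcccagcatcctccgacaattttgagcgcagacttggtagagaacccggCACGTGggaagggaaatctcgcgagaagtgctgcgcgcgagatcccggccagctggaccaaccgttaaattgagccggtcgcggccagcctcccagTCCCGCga
Sycp3: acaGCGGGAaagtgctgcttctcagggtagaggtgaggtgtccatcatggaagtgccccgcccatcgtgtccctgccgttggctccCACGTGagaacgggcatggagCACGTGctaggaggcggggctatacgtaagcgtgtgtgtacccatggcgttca
Syce2: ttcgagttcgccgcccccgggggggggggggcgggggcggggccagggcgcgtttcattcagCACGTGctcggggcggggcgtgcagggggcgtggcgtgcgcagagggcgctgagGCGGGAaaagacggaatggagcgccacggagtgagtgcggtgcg
Tex12: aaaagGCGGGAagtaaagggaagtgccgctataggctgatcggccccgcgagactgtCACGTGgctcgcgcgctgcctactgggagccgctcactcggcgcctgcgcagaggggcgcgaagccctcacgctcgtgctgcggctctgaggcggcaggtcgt
Sycp2: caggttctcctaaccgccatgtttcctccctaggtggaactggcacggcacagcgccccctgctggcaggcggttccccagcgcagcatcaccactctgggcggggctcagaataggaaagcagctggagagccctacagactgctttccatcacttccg

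The CACGTG hexamer lay 94 bases before the start in Sycp1, 88 in Syce2 and 93 in Tex12 (counted to its first base), and Sycp3 had it at 64 and again at 43 bases before the start. It was found, on either strand, in 7.15% of the 32851 windows of 300 bases in the RefSeq table and in 4 of the 7 genes. The E2F core TCCCGC was found in 20% of windows and in the same 4 genes. Both were together in 1.99% of windows. This pair was picked out after the matches were seen, so that share is no test of it. A gene was counted if any of its windows matched, and the 7 genes had 9 windows. The GC content of these 4 windows ran from 56.7% in Sycp1 to 69.3% in Syce2, against a median of 52.7% over all windows. CCTCAG, the core of the motif reported for STRA8, was in the windows of Syce1, Syce2, Sycp1 and Tex12 and in 26.8% of all windows. In Syce2 it overlaps an E2F core by 1 base. Of the short sites that RA receptors bind as pairs, AGGTCA was in the window of Sycp3 and in 16.3% of all windows, and GGTTCA was in 0 of the 7 genes and in 10.4% of windows. TGACGT, the core of the cAMP response element, was in 0 of the 7 genes and in 7.51% of windows, the MYB motif AACNGTT was in Sycp1 and in 4.45%, and the TATA box TATAAA was in Syce3 and in 13.6%. A match of letters is a description of the window and shows no binding. The log2 fold changes against In/B, given below, ran in RA-sufficient PL from 1.31 to 2.48 for the 4 genes with both motifs and from 0.88 to 2.18 for the 3 others.

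**Figure D1:**
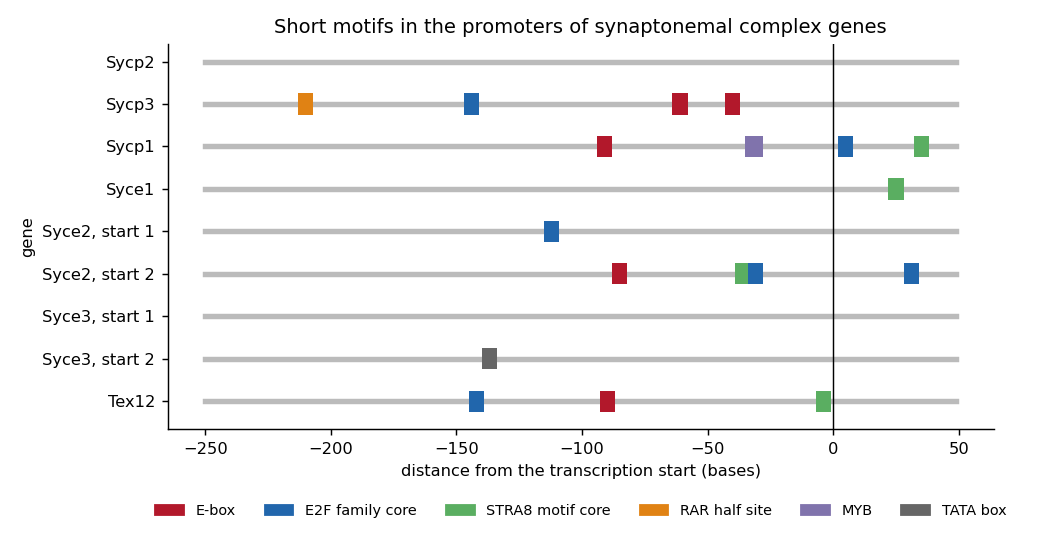
Positions of short motifs in the promoter windows of the 7 genes, drawn to scale in bases from the transcription start (vertical line), with 1 grey line per window and a coloured box per match. Sycp1, Sycp3, Tex12 and the second start of Syce2 hold both an E-box and an E2F core, and Sycp2 holds none of the motifs searched.

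Total counts ran from 12612959 to 27042274 per library, and they were deepest in RA-deficient PL (25048240 to 27042274). These deepest libraries had a count in the fewest genes, 14769 to 15327, against 16758 to 18002 in In/B and 17541 to 18434 in RA-sufficient PL. A level of 3 counts corresponds to between 0.111 and 0.238 CPM, far under every value of the 7 genes. Single marker genes did not all follow the labels of the libraries. RA-deficient PL replicates 1 and 2 held Kit, the receptor that marks differentiating spermatogonia, at 561 and 521 CPM, above the In/B libraries (327 to 404), while replicate 3 held 20.3, as low as RA-sufficient PL (20.2 to 41.0). Replicate 3 also differed from replicates 1 and 2 by a median absolute log2 difference of 0.50 per gene, against 0.23 between replicates 1 and 2. Other markers of differentiating spermatogonia did not all move like Kit. Dmrtb1 stood at 65.0 to 93.5 CPM in RA-deficient PL, under In/B (281 to 366), and Sohlh2 at 103 to 203, above In/B (79.4 to 79.5). The RA-induced gene Stra8 stood at 377, 365 and 81.5 CPM in RA-deficient PL and at 444, 126 and 121 in RA-sufficient PL, so its levels overlapped between the groups. RA-sufficient PL replicate 1 stood apart from its group in the summed level of 8 pachytene markers, at 1547 CPM against 612 and 561.

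Messages of all 7 genes were more abundant in each PL library than in each In/B library. The largest differences were in the lateral element genes Sycp3 and Sycp2, and the smallest in the central element gene Syce1. Levels are given in CPM of the library after TMM scaling, and replicates 1, 2 and 3 are named in that order. TMM scaling adjusts for the make-up of the libraries on the premise that most genes do not change. Fold changes come from edgeR and its quasi-likelihood test, and p-values were adjusted by the method of Benjamini and Hochberg over all genes tested. A gene was called changed at an absolute log2 fold change above 1 with an adjusted p below 0.05. The comparisons with In/B share the same In/B libraries and are therefore not independent of each other.

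Among the lateral element genes, Sycp2 was the most abundant message of the 7 in CPM, at 305, 543 and 540 CPM in In/B, 1648, 2251 and 2150 CPM in RA-sufficient PL and 1902, 1741 and 2469 CPM in RA-deficient PL. Every PL library lay at or above 1648 CPM and every In/B library at or under 543 CPM. Sycp2 rose by a log2 fold change of 2.18 (SE 0.23, edgeR adjusted p = 7.67e-05) in RA-sufficient PL, which is 4.54-fold, and by 2.31 (SE 0.23, edgeR adjusted p = 2.83e-04) in RA-deficient PL, which is 4.96-fold. Sycp3, the partner that polymerizes along the axis, stood at 81.0, 103 and 104 CPM in In/B. It reached 403, 530 and 612 CPM in RA-sufficient PL and 557, 532 and 701 CPM in RA-deficient PL. The groups were far apart, with no PL library under 403 CPM. Sycp3 rose 5.57-fold with RA (log2 2.48, SE 0.18, edgeR adjusted p = 1.64e-05) and 6.97-fold without it (log2 2.80, SE 0.16, edgeR adjusted p = 3.85e-05).

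The transverse filament gene Sycp1 was already abundant in In/B, at 269, 458 and 416 CPM. Its levels were 743, 991 and 1017 CPM in RA-sufficient PL and 861, 828 and 1201 CPM in RA-deficient PL. The In/B and PL ranges did not overlap, although In/B replicate 1 lay under the other In/B libraries. Sycp1 rose 2.51-fold in RA-sufficient PL (log2 1.33, SE 0.20, edgeR adjusted p = 5.36e-04) and 2.85-fold in RA-deficient PL (log2 1.51, SE 0.22, edgeR adjusted p = 0.00134).

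The central element genes covered a wide range of levels. Syce1, whose protein links SYCP1 to the central element, stood at 141, 188 and 185 CPM in In/B, 296, 296 and 322 CPM in RA-sufficient PL and 399, 395 and 347 CPM in RA-deficient PL. It was the only one of the 7 under a 2-fold change in RA-sufficient PL, at 1.85-fold (log2 0.88, 95% interval 0.53 to 1.24, edgeR adjusted p = 3.98e-04), and so was not called there. In RA-deficient PL it was called, at 2.49-fold (log2 1.32, SE 0.14, edgeR adjusted p = 3.20e-04). Syce3, the smallest message in CPM, stood at 18.5, 15.9 and 15.3 CPM in In/B, 37.4, 50.3 and 73.9 CPM in RA-sufficient PL and 35.3, 36.3 and 61.5 CPM in RA-deficient PL. Its PL libraries spread widely, with replicate 3 the highest of each PL group. Syce3 rose 3.38-fold with RA (log2 1.76, SE 0.25, edgeR adjusted p = 4.04e-04) and 3.01-fold without it (log2 1.59, SE 0.27, edgeR adjusted p = 0.00270).

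SYCE2 and TEX12 bind each other and assemble into the fibres that lengthen the central element. Syce2 stood at 145, 124 and 117 CPM in In/B, 220, 300.3 and 403 CPM in RA-sufficient PL and 303, 347 and 419 CPM in RA-deficient PL. Tex12 stood at 29.7, 41.2 and 39.0 CPM in In/B, 94.0, 126 and 151 CPM in RA-sufficient PL and 121, 133 and 142 CPM in RA-deficient PL. Neither gene had an In/B library inside its PL range. Syce2 rose 2.48-fold with RA (log2 1.31, SE 0.21, edgeR adjusted p = 6.80e-04) and 3.11-fold without it (log2 1.64, SE 0.16, edgeR adjusted p = 2.39e-04). Tex12 rose 3.52-fold (log2 1.81, SE 0.20, edgeR adjusted p = 1.01e-04) and 4.05-fold (log2 2.02, SE 0.16, edgeR adjusted p = 1.22e-04).

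**Figure D2:**
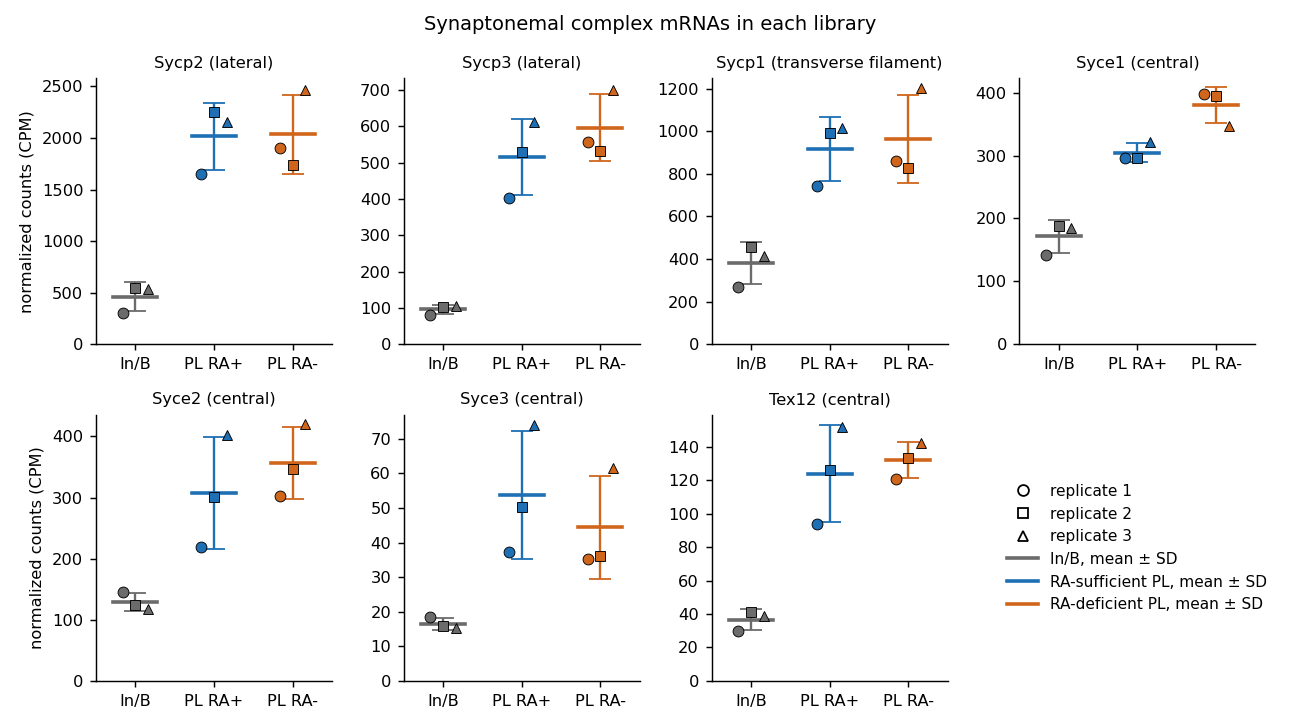
Level of each of the 7 messages in each library, in CPM on linear axes that start at 0, with a symbol per replicate and the mean ± SD of the 3 libraries of a group. In every panel the 3 In/B libraries lie under the 6 PL libraries, and the PL groups overlap in all panels except that of Syce1 (296 to 322 against 347 to 399 CPM).

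In RA-sufficient PL, 6 of the 7 genes were called higher than in In/B, against 26.1% of the 15001 genes tested, and all 7 had an adjusted p below 0.05 with a higher level, against 33.8%. All 7 had PL libraries entirely above the In/B libraries, against 35.6% of genes tested. Their median log2 fold change was 1.76, and that of all genes tested was 0.04. In RA-deficient PL, 7 of 7 were called higher, against 11.4% of the 14877 genes tested, and 7 of 7 did not overlap, against 21%. The median was 1.64 for the 7 genes and 0.004 for all genes tested. The counts of 6 and 7 held when any single library was left out. In bulk libraries fewer cells of a type and less RNA per cell cannot be told apart, so these values do not say whether each cell held more message or more cells held it.

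The replicates of a group did not move alike for all 7 genes. In/B replicate 1 was the lowest of its group for Sycp1, Sycp2, Sycp3, Syce1 and Tex12, and the highest for Syce2 and Syce3. RA-sufficient PL replicate 1 was the lowest of its group for all 7 genes, with Syce1 at 296 CPM in replicates 1 and 2. RA-deficient PL replicate 3 was the highest for 6 genes and the lowest for Syce1. Summed over the 7 genes, the level was 990, 1473 and 1416 CPM in In/B, 3440, 4545 and 4730 CPM in RA-sufficient PL and 4177, 4013 and 5341 CPM in RA-deficient PL.

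Between the PL groups, none of the 7 genes was called changed, and their levels lay close together. Fold changes of RA-deficient against RA-sufficient PL ran from a log2 value of -0.28 for Syce3 to 0.32 for Syce1. By edgeR 0 of 7 were called and 1 had an unadjusted p below 0.05. By DESeq2 0 of 7 were called, 1 had an adjusted p below 0.05 and 1 an unadjusted p below 0.05. Of the 15352 genes tested, 15.5% were called and 23.6% had an adjusted p below 0.05 by edgeR. The median absolute log2 fold change was 0.21 for the 7 genes and 0.62 for all genes tested. A p that misses the threshold does not show equal levels, so the 95% intervals are given below.

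The lateral element genes differed little between the PL groups. Sycp2 had a log2 fold change of 0.01 with a 95% interval from -0.44 to 0.46 (edgeR adjusted p = 0.957), and Sycp3 of 0.21 with an interval from -0.24 to 0.67 (edgeR adjusted p = 0.379). For Sycp1 the value was 0.07, from -0.41 to 0.55 (edgeR adjusted p = 0.797). Both Sycp1 and Sycp2 changed sign, with values close to 0, when RA-deficient PL replicate 3 was left out (-0.11 and -0.14). The interval of Tex12 was equally narrow, at 0.09 from -0.37 to 0.56 (edgeR adjusted p = 0.719), and that of Syce2 ran from -0.37 to 0.80 around 0.22 (edgeR adjusted p = 0.492). For these 5 genes a 2-fold difference in either direction lay outside the interval.

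Syce1 and Syce3 stood at the ends of the range. Syce1 was the only gene whose PL groups did not overlap, with every RA-deficient library above every RA-sufficient library, as for 20.1% of all genes tested. Its log2 fold change was 0.32 with an interval from 0.03 to 0.60 (edgeR adjusted p = 0.0617), which is 1.25-fold and did not pass the test. It was the gene with an adjusted p below 0.05 by DESeq2 (0.0429), and by edgeR it had an adjusted p of 0.0196 without RA-deficient PL replicate 3, at a log2 fold change of 0.39, and of at least 0.0551 under the other alternatives. Syce3 was the only gene with a negative value, -0.28, and its interval from -1.13 to 0.58 was the widest and did not leave out a 2-fold fall (edgeR adjusted p = 0.551). With scaling by library size only, the median log2 fold change of all genes tested between the PL groups moved from -0.09 to -0.27, and Sycp1, Sycp2 and Tex12 changed sign (-0.12, -0.17 and -0.09). These 3 values moved by about as much as the median of all genes, and 0 of the 7 genes were called under either scaling.

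**Figure D3:**
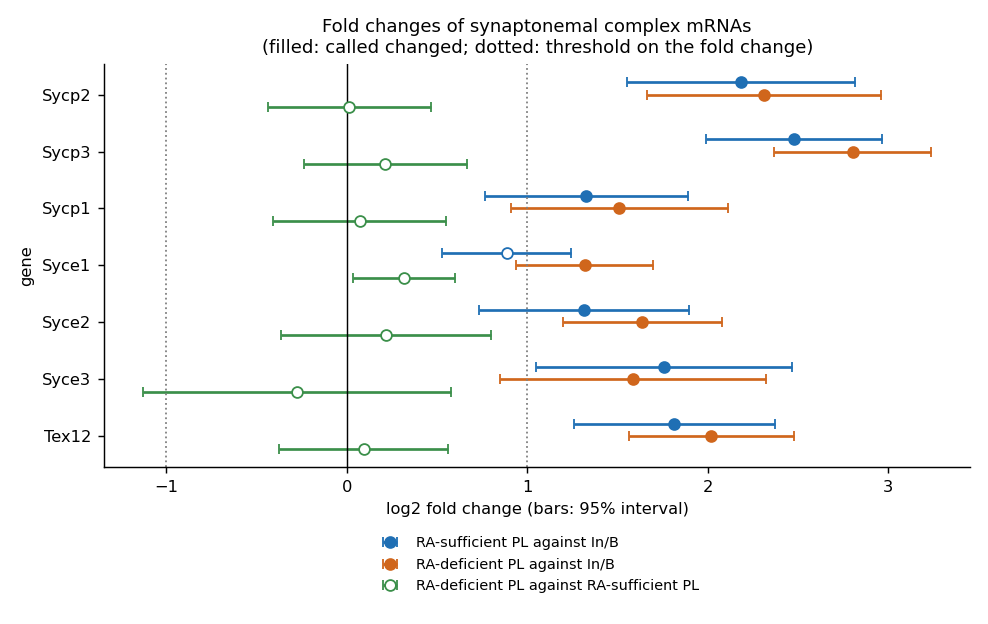
Log2 fold change of each gene in the 3 comparisons, with bars for the 95% interval and filled symbols for called genes, and dotted lines at the 2-fold threshold. The values against In/B lie between 0.88 and 2.80 and the values between the PL groups lie between -0.28 and 0.32.

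Levels of different genes can be compared only per length, so the CPM of each gene was divided by its exon length in kb. On this scale of CPM per kb, the order in In/B was Syce1 (117), Sycp1 (110), Sycp2 (77.5), Sycp3 (76.1), Syce2 (65.4), Tex12 (59.4) and Syce3 (29.9). Each neighbour in that order overlapped the next over the 3 libraries except Tex12 (48.2 to 66.7) and Syce3 (27.6 to 33.5). In RA-sufficient PL the lateral element genes came first by exon length, with Sycp3 at 408 and Sycp2 at 338 CPM per kb. They were followed by Sycp1 at 265, Syce1 at 208, Tex12 at 201, Syce2 at 156 and Syce3 at 97.4. The range of each gene over the 3 libraries overlapped that of the next. Within single libraries of RA-sufficient PL, the ratio of Sycp3 to Sycp2 ran from 1.11 to 1.34. The ratio to Tex12 ran from 0.90 to 1.33 for Syce1 and from 0.73 to 0.83 for Syce2. The order of the group means was the same in RA-deficient PL, where Sycp3 (472) lay above Sycp2 (341) without overlap, as did Syce1 (260) above Tex12 (214) and Syce2 (181) above Syce3 (80.2). Among the genes with at least 1 CPM, Sycp3 stood at the 95.2 percentile of per-length level in In/B and at the 99.9 percentile in RA-sufficient PL. By coding length in place of exon length, Syce2, with 531 coding of 1968 exon bases, came first in In/B at 242 CPM per kb. In RA-sufficient PL, Syce2 stood by coding length at 579 CPM per kb, between Sycp3 (676) and Sycp2 (448). In RA-deficient PL it stood at 671, again between Sycp3 (783) and Sycp2 (453).

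The make-up of the message pool shifted towards the lateral elements. Sycp2 and Sycp3 together made up 28.5% ± 2.30 of the summed per-length level of the 7 genes in In/B (SD, n = 3), 44.6% ± 1.26 in RA-sufficient PL and 44.4% ± 1.81 in RA-deficient PL. The share of the central element genes was 51.3% ± 4.69 in In/B, 39.6% ± 1.94 in RA-sufficient PL and 40.5% ± 2.88 in RA-deficient PL, and that of Sycp1 was 20.3% ± 2.54, 15.9% ± 0.70 and 15.1% ± 1.18. For each element the In/B libraries lay outside the range of the PL libraries, and the PL groups overlapped. Sycp3 and Syce1 had the largest and the smallest fold change against In/B in both PL groups. Their ratio per length therefore shifted most of the 6 ratios computed. It went from 0.65 ± 0.01 in In/B to 1.95 ± 0.33 in RA-sufficient PL and 1.84 ± 0.43 in RA-deficient PL. Within the central element, the ratio of Syce1 to Tex12 fell from 1.98 ± 0.04 in In/B to 1.07 ± 0.23 and 1.23 ± 0.18, with no overlap between In/B and PL libraries. The ratio of Syce2 to Tex12, which encode binding partners, was 1.14 ± 0.34, 0.77 ± 0.06 and 0.84 ± 0.07. These shares and ratios are descriptions with no test.

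**Figure D4:**
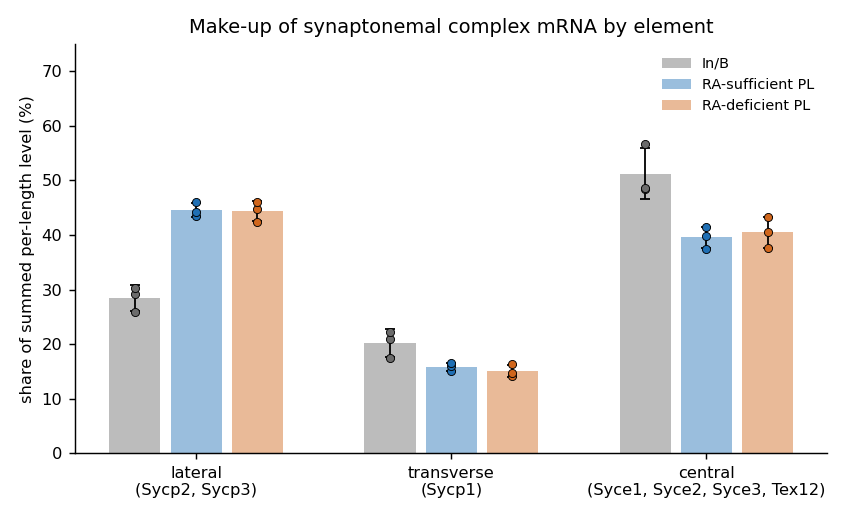
Share of each element of the synaptonemal complex in the summed per-length level of the 7 genes, in percent, with bars for group means, error bars for the SD of 3 libraries and a point per library. The lateral share is 28.5% in In/B and 44.6% and 44.4% in the PL groups.

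Markers of other cells moved between the groups as well. Sertoli cells are the somatic nurse cells of the tubule, and the summed level of 10 of their markers was 72.5 to 382 CPM in In/B, 3191 to 4166 CPM in RA-sufficient PL and 317 to 561 CPM in RA-deficient PL. All 10 were called higher in RA-sufficient PL than in In/B, with Gata4 (log2 3.44) and Wt1 (log2 3.57) at the lowest p and Inha (log2 4.63) at the largest fold change, and all 10 were called lower in RA-deficient than in RA-sufficient PL, with none at 0 in a group. In RA-deficient PL the Sertoli sums overlapped those of In/B. Against In/B, 9 of the 10 Sertoli markers had a higher level there, with a median log2 fold change of 0.996. Of the 10, 1 was called higher by edgeR, against 11.4% of all genes tested, and 2 by DESeq2. The 8 pachytene markers summed to 98.4 to 169 CPM in In/B, 561 to 1547 CPM in RA-sufficient PL and 142 to 425 CPM in RA-deficient PL. Of these 8, 7 were called higher than In/B with RA and 1 (Hspa2, a chaperone of spermatocytes, log2 1.59) without RA. Hspa2 also weighed most in the RA-deficient sums, at 132 to 244 CPM. Between the PL groups all 8 had lower values in RA-deficient PL. Their median log2 fold change was -3.13, against -0.09 for all genes tested. Of the 8, 0 were called by edgeR or DESeq2, against 15.5% of all genes tested by edgeR. An unadjusted p below 0.05 was found for 4 by edgeR and 3 by DESeq2. The library with the highest pachytene sum, RA-sufficient PL replicate 1, had the lowest synaptonemal complex sum of the PL libraries (3440 CPM). In RA-deficient PL, replicate 3 had both the highest pachytene sum and the highest synaptonemal complex sum.

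The 7 markers of differentiating spermatogonia summed to 3657 to 5349 CPM in In/B and 808 to 928 CPM in RA-sufficient PL. In RA-deficient PL the sums were 3124, 3252 and 1320 CPM. Uchl1, whose promoter drives the EGFP of the sort, weighed most in In/B, at 2820 CPM on average. Against In/B, 1 of the 7 was called higher (Ccnd2) and 5 lower in RA-sufficient PL. In RA-deficient PL, 1 was called higher (Sohlh2) and 1 lower (Dmrtb1). Between the PL groups, 5 were called higher and 1 lower (Ccnd2) in RA-deficient PL. Of all genes tested, 26.1% were called higher and 19.3% lower in RA-sufficient PL than in In/B. In RA-deficient PL against In/B these shares were 11.4% and 11.8%, and between the PL groups 4.47% and 11%. The synaptonemal complex sums of RA-deficient PL replicates 1, 2 and 3 were 4177, 4013 and 5341 CPM. The 6 preleptotene markers summed to 510 to 1161 CPM in In/B, 1947 to 2266 CPM in RA-sufficient PL and 2545 to 2590 CPM in RA-deficient PL, of which 3 and 4 were called higher than In/B. Between the PL groups 0 of these 6 were called by edgeR or DESeq2, against 15.5% of all genes tested by edgeR. An unadjusted p below 0.05 was found for 2 by each. Leydig markers (7 genes) summed to 10.2 to 16.6, 40.6 to 46.5 and 12.0 to 24.8 CPM, peritubular and stromal markers (8 genes) to 82.9 to 91.6, 179 to 219 and 126 to 138 CPM, and macrophage and blood markers (7 genes) to at most 9.26 CPM in any library. Spermatid markers (9 genes) stayed at 6.28 to 10.6 CPM. The part of these other cells in the levels of the 7 genes was not tested.

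**Figure D5:**
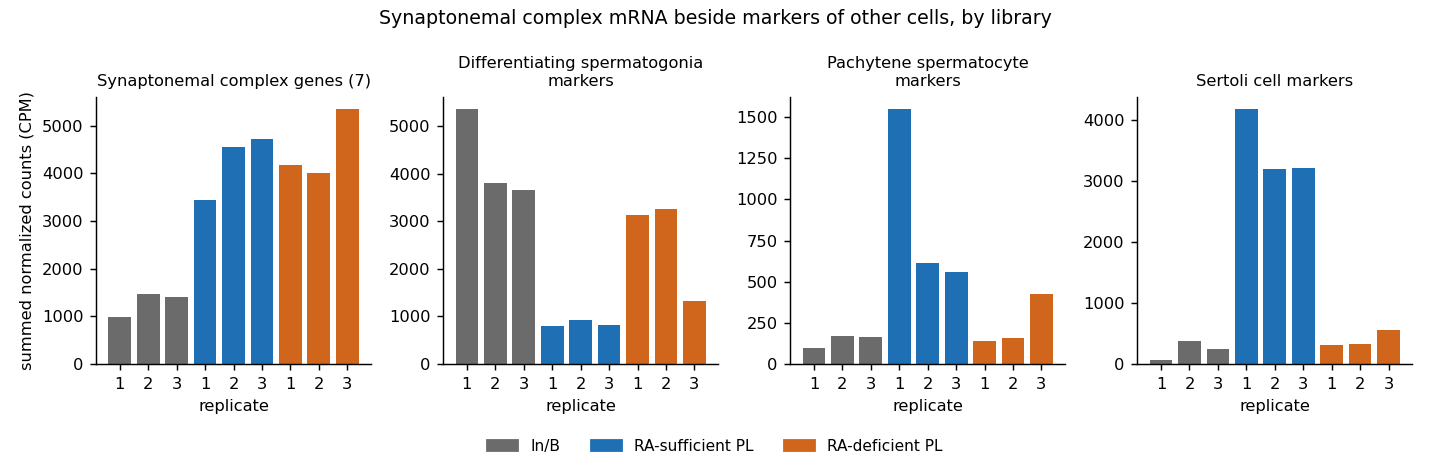
Summed CPM in each library for the 7 synaptonemal complex genes and for markers of differentiating spermatogonia, pachytene spermatocytes and Sertoli cells, 1 bar per library on linear axes from 0. The Sertoli sum is at least 3191 CPM in RA-sufficient PL and at most 561 CPM elsewhere. The synaptonemal complex sum is at least 3440 CPM in both PL groups.

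The wider set of chromosome axis, cohesin and synapsis genes, 23 in number, moved in both directions. Cohesin rings hold sister chromatids together, and in meiosis several of their subunits are replaced by meiotic forms. Against In/B, 11 were called higher and 6 lower in RA-sufficient PL, where 26.1% and 19.3% of all genes tested were, and their median log2 value was 0.58. In RA-deficient PL 13 were called higher and 2 lower, where 11.4% and 11.8% of all genes were, and their median was 1.34. Rad21l, a meiotic cohesin subunit, rose by a log2 fold change of 3.58 with RA and 4.15 without it, from 14.1 ± 1.81 CPM in In/B to 162 ± 18.9 and 223 ± 21.0 CPM. Meiob and Spata22, partners in strand break repair, rose by 5.78 and 4.11 with RA and by 5.51 and 4.41 without it. Msh5, a crossover factor, rose by 4.55 with RA and 4.05 without it, and Smc1b, a meiotic cohesin subunit, by 1.34 and 1.68. The mitotic subunit Smc1a fell by 1.67 with RA and by 1.61 without it, and Rad21 fell by 1.43 and 1.34. Not all meiotic subunits rose. Rec8 stood at -0.92 with RA and -1.32 without it, called in neither (edgeR adjusted p = 0.153 and 0.217), with libraries that overlapped In/B. Stag3 stood at 0.51 with RA, not called, and at 1.15 without it, called. Trip13, an ATPase that removes HORMA proteins from synapsed axes, fell by 2.11 with RA. Without RA it fell by 0.73 (edgeR adjusted p = 0.0275), under 2-fold and so not called. With scaling by library size only it was called there, at -1.04. Fkbp6, a chaperone linked to synapsis, fell by 1.07 with RA. It stood at 0.19 without RA and was not called (edgeR adjusted p = 0.422). All adjusted p of these calls by edgeR were below 0.05. A further central element gene, 4930447C04Rik (RefSeq synonym Six6os1), was picked out after its values were seen. Its levels were 70.9, 128 and 141 CPM in In/B, 254, 414 and 384 CPM in RA-sufficient PL and 490, 409 and 487 CPM in RA-deficient PL, with log2 fold changes of 1.69 and 2.20 against In/B (edgeR adjusted p = 6.66e-04 and 4.14e-04) and of 0.40 between the PL groups (edgeR adjusted p = 0.137).

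Of the 22 axis and synapsis genes tested between the PL groups, 3 were called higher in RA-deficient PL, 0 lower, and 19 were not called. The median of these genes was 0.23 on the log2 scale. With scaling by library size only, 1 was called higher. Background shares for this comparison were 4.47% of genes called higher and 11% called lower. The 3 were Fkbp6, Tex11 and Trip13. The cohesin subunits Smc3 (log2 0.65, edgeR adjusted p = 0.00669) and Stag3 (log2 0.53, edgeR adjusted p = 0.0218) had an adjusted p below 0.05 at under 2-fold. TEX11 is an X-linked protein of crossover sites. Tex11 ran from 341 to 489 CPM in In/B, 166 to 189 CPM in RA-sufficient PL and 343 to 408 CPM in RA-deficient PL, so that the libraries without RA lay within the In/B range.

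Genes of the telomere attachment machinery, which tethers chromosome ends to the nuclear envelope, numbered 8. In each comparison with In/B 5 of the 8 were called higher and 0 lower, with medians of 2.37 with RA, where 26.1% of all genes tested were called higher, and 2.83 without it, where 11.4% were. Terb1, which links telomere proteins to the membrane complex, rose by log2 fold changes of 4.27 and 4.15, from 10.4 ± 1.06 CPM in In/B to 193 ± 43.9 and 165 ± 49.8 CPM. Ccdc155, which encodes the KASH protein of this complex, rose by 3.19 and 3.81. Spdya, the partner of CDK2 at telomeres, rose by 4.42 with RA and 3.93 without it, and Majin, the membrane anchor, by 1.896 and 2.672. Between the PL groups 0 of 8 were called by edgeR or DESeq2, against 15.5% of all genes tested by edgeR. An unadjusted p below 0.05 was found for 4 by each. By edgeR, 3 of the 8 had an adjusted p below 0.05 at under 2-fold, Sun2 at -0.69, Cdk2 at -0.67 and Majin at 0.67. Of all genes tested, 23.6% had an adjusted p below 0.05 by edgeR.

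Across the 9 libraries the 7 genes had like profiles. Pearson's r of log2(CPM + 0.5) between pairs had a median of 0.949 over the 21 pairs, from 0.776 for Syce1 and Syce3 to 0.994 for Sycp3 and Tex12. The libraries share groups, so these values mainly set In/B apart from PL, and they are given without a test. Of 9689 other genes averaging 10 CPM or more, the 5 closest to the mean profile of the 7 were Atr, Zfp672, Sympk, Trim52 and Slc25a42, each with r = 0.996. Atr, a kinase that responds to replication stress and marks unsynapsed chromosomes, stood at 280 CPM in In/B and at 1517 and 1753 CPM in RA-sufficient and RA-deficient PL on average. Sympk, a scaffold of mRNA 3′ end processing, stood at 119, 380 and 377 CPM. The lowest levels of the 5 in In/B were those of Trim52, at 11.2 CPM, which stood at 159 and 186 CPM in the PL groups.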

How the data were processed

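Per the labels and the methods, the authors made stranded poly(A) libraries, used cutadapt 1.9 to trim the single-end reads and STAR 2.5.2b to align them to mm9, and counted per gene with featureCounts. They deposited raw counts without normalization in 1 table of 24505 genes. The annotation and strand setting are not given in the sources used here. All 9 columns were matched to a group and replicate by name, and 0 were left unused. The methods give a range for the number of independent cell preparations, and its lower end is under the number of libraries in a group. They do not tie preparations to libraries. The p-values therefore measure the spread between libraries, which may not all come from separate preparations.

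The 7 genes, the gene lists and the motifs were chosen with earlier results of these data known. A gene first listed under telomere attachment by a wrong synonym was dropped after the counts were seen. Pairs of groups, 3 libraries each, were compared with edgeR 4.0.16 in R 4.3.3 (TMM scaling, filterByExpr, quasi-likelihood test, Benjamini-Hochberg adjustment over all genes tested). CPM used TMM factors over all 9 libraries. The 95% intervals use the SE and 4 residual degrees of freedom. On simulated data with 200 changed genes, as many raised as lowered, the test was checked before use. The real comparisons called 2383 to 6803 genes, so that check does not cover changes as broad as these. DESeq2 1.42.0, other scalings and filters, all 9 libraries in a single fit, a replicate block and each library left out in turn were alternatives. Exon and coding lengths come from GENCODE M1, in which 20531 names were found, and coding length was added as an alternative after the data were seen.

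Named beside the 7 genes are, from the axis and telomere lists, genes called between the PL groups and the 3 with the lowest p in each comparison and direction, the 5 other genes closest in profile (Pearson's r, at least 10 CPM), and at most 3 called markers by lowest p. Kit, Stra8, Chpt1, Sycp1-ps1, Smc3, Stag3, Rec8, Inha, Uchl1, Ccnd2, Sohlh2, Dmrtb1, Vim, Col1a1 and 4930447C04Rik were named after their values were seen. Counts of 12612959 to 27042274 per library set the depth.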

Additional observations from a re-analysis of the deposited data

Results flagged for a closer look

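Groups of 3 libraries are too small for a test of outlying libraries, and 0 of the 7 synaptonemal complex genes were called between the PL groups by edgeR or DESeq2, with 1 at an unadjusted p below 0.05 by each. Among the axis and synapsis genes, 3 differed over 2-fold between the PL groups by a direct test, edgeR's comparison of RA-deficient with RA-sufficient PL. Each comparison was scaled and fitted by itself, so the direct value is not the exact difference of the values against In/B. Fkbp6 had a log2 fold change against In/B of -1.07 with RA and 0.19 without it, and of 1.14 in the direct comparison (edgeR adjusted p = 0.00516). Its levels were 441 to 499 CPM in In/B, 197 to 225 CPM in RA-sufficient PL and 361 to 547 CPM in RA-deficient PL. Tex11 had -1.18 and 0.02, and 1.08 directly (edgeR adjusted p = 0.00130). Trip13 had -2.11 and -0.73, and 1.26 directly (edgeR adjusted p = 0.0102), with 153 to 156 CPM in In/B, 33.9 to 34.9 CPM in RA-sufficient PL and 56.8 to 100.1 CPM in RA-deficient PL. All 3 calls held when any single library was left out. The 7 markers of differentiating spermatogonia, Uchl1 of the sort among them, summed to 3657 to 5349 CPM in In/B and 808 to 928 CPM in RA-sufficient PL. In RA-deficient PL the sums were 3124, 3252 and 1320 CPM. Between the PL groups, 5 of the 7 were called higher and 1 lower in RA-deficient PL, against 4.47% and 11% of all genes tested. The part of such cells in the 3 differences was not tested. With scaling by library size only, Fkbp6 (0.97) and Tex11 (0.90) fell under the 2-fold threshold and Trip13 (1.08) did not.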

How the results depend on the processing

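The number of the 7 genes called against In/B (6 with RA, 7 without it) and between the PL groups (0) was the same under every scaling, filter, fit and tool tried and with each library left out, except that 7 passed an adjusted p below 0.05 alone with RA. With the replicate number as a block the counts were again 6, 7 and 0. Same-numbered libraries were not paired, since the correlation of their deviations from the group means ran from -0.26 to 0.13. The log2 fold changes of single genes kept their sign in 265 of 273 alternatives. The other 8 were between the PL groups and close to 0. With library size only these were Sycp1 (-0.12), Sycp2 (-0.17) and Tex12 (-0.093). Without RA-sufficient PL replicate 1 they were Sycp1 (-0.041), Sycp2 (-0.092) and Tex12 (-0.052), and without RA-deficient PL replicate 3 Sycp1 (-0.11) and Sycp2 (-0.14). Over the libraries left out in turn, the values between the PL groups ran from -0.11 to 0.18 for Sycp1, from -0.14 to 0.13 for Sycp2 and from -0.052 to 0.23 for Tex12. The median over the 7 genes was 1.46 with RA without RA-sufficient PL replicate 3, and with library size only it was 1.32 in RA-deficient PL against In/B and -0.09 between the PL groups, where that scaling moved the median of all genes from 0.004 to -0.31 and from -0.09 to -0.27.

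By coding length, chosen after seeing the data, the transverse, lateral and central shares were 13.4%, 24.3% and 62.2% in In/B, 10.7%, 39.5% and 49.8% in RA-sufficient PL and 10.1%, 39.3% and 50.6% in RA-deficient PL. Leaving out single libraries, the lateral share ran from 27.5% to 29.8% in In/B and from 43.6% to 45.4% in RA-deficient PL. The median likeness was 0.867 by Spearman's rho. The cause of these shifts was not tested. Between the PL groups, 3 libraries a group left the interval of Syce3 wider than 2-fold on the lower side.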
